A study of Mus musculus with 6 samples.

Results

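Trimethylation of lysine 79 of histone H3 (H3K79me3) was compared gene by gene between 2 mutants of the leukemia fusion protein MLL-AF9, D546R and D544R. The values were read counts from chromatin immunoprecipitation followed by sequencing (ChIP-seq). Of the 24012 genes counted, 4925 (20.5%) averaged 300 or more normalised counts over the D546R, D544R and WT libraries of the mark and were compared, and a ratio here is always D546R over D544R. The median log2 ratio was -0.07, while 167 genes (3.39% of those compared) were at least 2-fold lower in D546R and 68 (1.38%) at least 2-fold higher. The lowest ratios were those of Tsc22d2, Fmr1, 2610020H08Rik and Meis1. Those of Fmr1 and 2610020H08Rik rest on only 65 and 86 D546R counts before scaling. Lower genes were most frequent among the genes that carried the densest mark in cells with the WT fusion.

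All cells were hematopoietic progenitors from mouse bone marrow that had received a retrovirus encoding MLL-AF9 with the D546R exchange, with the D544R exchange, or unchanged (WT). The antibodies were Abcam ab3594 for dimethylation of the same residue (H3K79me2) and a Diagenode serum for H3K79me3. Every genotype had 1 library per mark, the reads of several runs having been merged per the labels. There was therefore no replicate, no test between groups and no p-value, and the intervals given cover counting error only. The number of animals and cultures was not given in the sources used here, and in a bulk sample fewer marked cells and less mark per cell cannot be told apart.

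H3K79 is methylated by DOT1L, an enzyme that works on nucleosomes within transcribed genes, where the mark is densest near the start of the gene body. AF9 is a binding partner of DOT1L and is also part of complexes that help RNA polymerase II to elongate. In MLL-AF9 the DNA-targeting part of MLL is joined to the partner-binding end of AF9, and genes bound by the fusion in leukemia, such as the HoxA genes and Meis1, carry unusually broad H3K79 methylation. The title of the series asks how the degree of DOT1L recruitment to MLL-AF9 relates to H3K79 methylation of target genes, and setting D546R against D544R asks in which genes the 2 exchanged aspartates differ in that respect.

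Counts were taken over each gene with 2 kb added, on the mm9 build, at the low-coordinate end in nearly all cases checked. The low-coordinate end is before the start of plus-strand genes and past the transcript end of minus-strand genes. The H3K79me3 libraries held 6652571 counts in D546R, 5207395 in D544R and 5859821 in WT, and were scaled by size factors of 1.17 in D546R, 0.872 in D544R and 0.982 in WT. The D546R library was the least complex: it had 2203 regions with no count, against 983 in D544R and 1063 in WT. It also had an estimated 18.6 reads per independent fragment, against 8.12 in D544R and 9.73 in WT. Counts were divided by these numbers before intervals were computed, and the result is called the fragment interval. A gene was called lower or higher when its ratio was at least 2-fold and its fragment interval excluded no change. This is a rule of size and not a significance test. The part that the lower complexity of the D546R library plays in the calls was not tested.

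A limit on counts favours long regions. The median region was 93.4 kb among the genes compared, against 15.9 kb in the whole table, and 1762 of them (35.8%) overlapped another region and so shared reads with it. Both mutants had at least 300 normalised counts in 4174 of the genes, D546R alone in 279, D544R alone in 425 and neither in 47. Just inside the limit of 300 stood Pgd, 1500017E21Rik and Kif14, with means of 300.17, 300.17 and 300.20 and log2 ratios of 0.23, -0.27 and -0.44. Just outside stood Entpd4, Pisd-ps2 and Tceb1, with means of 299.9, 299.8 and 299.7 and log2 ratios of -0.44, 0.65 and -0.34. Genes on either side of the limit thus had ratios of either sign.

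As a check of the labelled cell type, the density of the mark in WT (normalised counts per kb of region) was read for all listed genes, also those below the limit. The median was 14.01 for 25 known MLL fusion targets outside HoxA and 12.9 for 24 housekeeping genes, against 4.56 for 40 long genes that are silent outside the nervous system. It was 6.60 for 31 myeloid surface and signalling genes, 5.15 for 22 stem and progenitor genes, 5.12 for 27 myeloid transcription factors and 4.72 for 26 granule genes. Lymphoid genes had 4.23, erythroid and megakaryocyte genes 3.98 and mast cell genes 3.35. The lineage lists thus lay near the silent neural genes and hardly separate the cell types. Above the limit stood 19 of 25 fusion targets, but 1 of 27 myeloid transcription factors, 6 of 31 myeloid surface genes and 4 of 26 granule genes.

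The promoters of 4 genes on which the account turns are given first, as the 250 bases before the start in RefSeq (GRCm38.p6), 5′ to 3′ along the gene, with CpG dinucleotides in capitals. Meis1 and Runx2 stand for the lower fusion targets, Chil3 for the higher myeloid genes and Cntnap2 for long silent genes that hardly differed. Their positions are chr11:19018970-19019219 (minus strand) for Meis1, chr17:44814628-44814877 (minus) for Runx2, chr3:106167565-106167814 (minus) for Chil3 and chr6:45059811-45060060 (plus) for Cntnap2.
Meis1: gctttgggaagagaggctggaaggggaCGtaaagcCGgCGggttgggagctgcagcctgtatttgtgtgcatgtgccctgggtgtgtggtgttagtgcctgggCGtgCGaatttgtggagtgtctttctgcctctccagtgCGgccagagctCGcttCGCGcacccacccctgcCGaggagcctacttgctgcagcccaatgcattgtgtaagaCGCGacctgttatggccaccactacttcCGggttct
Runx2: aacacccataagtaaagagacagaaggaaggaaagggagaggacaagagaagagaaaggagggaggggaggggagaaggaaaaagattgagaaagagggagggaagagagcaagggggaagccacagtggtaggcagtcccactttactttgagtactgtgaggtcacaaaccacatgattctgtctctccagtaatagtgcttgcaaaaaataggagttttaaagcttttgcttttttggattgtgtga
Chil3: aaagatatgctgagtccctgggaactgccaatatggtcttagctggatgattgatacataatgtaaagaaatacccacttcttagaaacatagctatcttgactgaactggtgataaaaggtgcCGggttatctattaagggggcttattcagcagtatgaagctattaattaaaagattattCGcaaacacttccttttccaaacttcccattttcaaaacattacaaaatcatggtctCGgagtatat
Cntnap2: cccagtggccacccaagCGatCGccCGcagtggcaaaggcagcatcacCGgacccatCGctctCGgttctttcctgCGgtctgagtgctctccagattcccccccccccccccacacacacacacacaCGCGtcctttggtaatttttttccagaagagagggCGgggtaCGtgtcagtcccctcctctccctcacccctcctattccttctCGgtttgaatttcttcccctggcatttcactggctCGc
These windows hold 13 CpG in Meis1, 0 in Runx2, 3 in Chil3 and 13 in Cntnap2, so the lower and the nearly level gene have the same number. Of the 167 lower genes 138 (82.6%) had a promoter in the table, with a median of 19 CpG in 250 bases. The median was 18 over the 69.1% of higher genes with a promoter and 17 over the 77.7% of the remaining genes with one. Too many of these genes lack a promoter for a comparison, and the medians lie close together. Meis1, Runx2 and Chil3 lie on the minus strand, where the 2 kb added to the counted region lay past the transcript end, so their promoters were not counted.

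Tsc22d2, a leucine zipper protein of the TSC22 family, had the lowest ratio of all 4925 genes (NM_001081229, mm9 chr3 58217610 to 58270709). Its normalised count was 623 in D546R, 6053 in D544R and 6772 in WT, so that D546R was 9.71-fold below D544R while D544R and WT lay close together. The log2 ratio was -3.28 (fragment interval -3.79 to -2.81). The region also ranked 3 in density in WT, at 128 normalised counts per kb.

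Fmr1, which encodes the RNA-binding protein FMRP, had a log2 ratio of -3.28 as well, on far fewer counts. It had 55.6 normalised counts in D546R, 543.9 in D544R and 729 in WT, and its fragment interval ran from -5.39 to -1.77. Meis1, the homeobox cofactor of the HOX proteins (NM_010789, chr11 18778430 to 18918972), had 957 normalised counts in D546R, 5192 in D544R and 5950 in WT. Its log2 ratio was -2.44 (-2.85 to -2.05). In all of these genes D546R stood apart from the other 2 libraries. Between Fmr1 and Meis1 in rank lay 2610020H08Rik, at -2.52 (-4.30 to -1.15), with 73.6 normalised counts in D546R, 423 in D544R and 407 in WT.

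Dcun1d1, which helps attach the ubiquitin-like protein NEDD8 to cullins, had 372 normalised counts in D546R, 1727 in D544R and 2537 in WT. Its log2 ratio was -2.21 (-2.90 to -1.59). Rdx, which encodes radixin, a linker of actin to the membrane, had 361 in D546R, 1596 in D544R and 1809 in WT, a log2 ratio of -2.14 (-2.85 to -1.51). Cdk13, a kinase of the RNA polymerase II tail (chr13 17805795 to 17896931), had 1188 in D546R, 4319 in D544R and 5340 in WT, and a log2 ratio of -1.86 (-2.24 to -1.51). The order D546R, D544R, WT was the same from low to high in each. Erbb2ip (now Erbin), a scaffold protein that binds the receptor ERBB2, followed at -1.84 (-2.26 to -1.45), with 974 normalised counts in D546R, 3495 in D544R and 4771 in WT.

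Genes with Rik and similar provisional names aside, the other genes among the 12 lowest were Clta, Loh12cr1 (now Borcs5), AI314180 (now Ecpas), Zfp800 and Zbtb25, with log2 ratios from -2.02 to -1.88. Clta encodes a clathrin light chain, and Zfp800 and Zbtb25 encode zinc finger proteins. Loh12cr1 differed from the rest in its WT value. It had 177 normalised counts in D546R, 699 in D544R and 235 in WT, so that D544R was the library that stood apart. AI314180 had 1216 in D546R, 4746 in D544R and 5266 in WT.

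**Figure D1:**
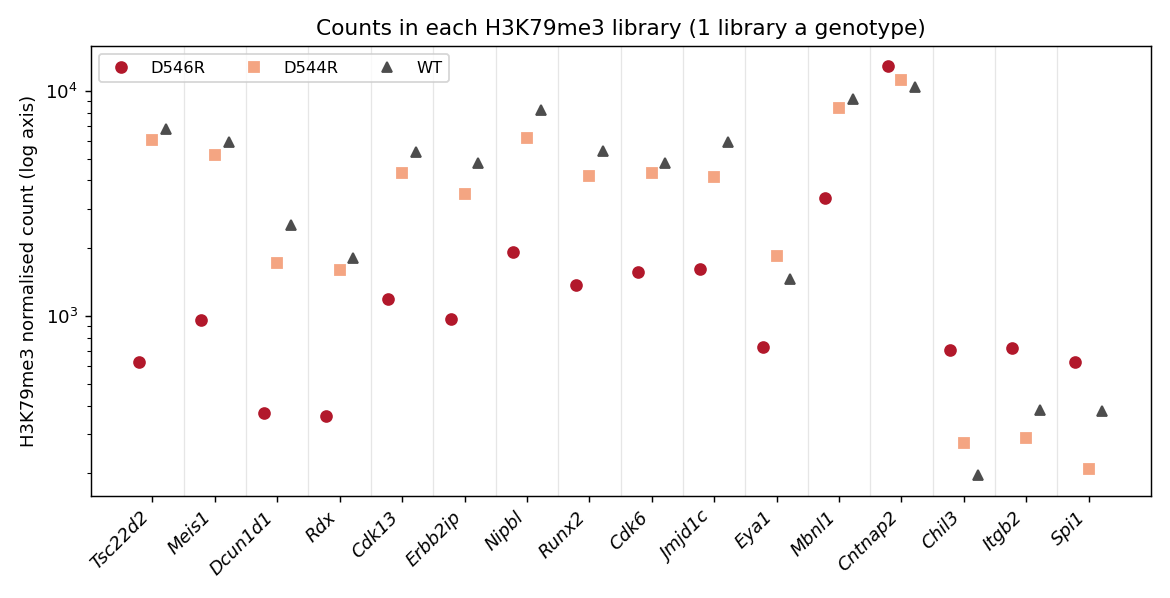
Normalised H3K79me3 counts (log axis) of 16 genes in the D546R, D544R and WT libraries, 1 library a genotype, each point being 1 library. In Tsc22d2 the D546R point (623) lies far below D544R (6053) and WT (6772), in Cntnap2 the points nearly meet, and in Chil3, Itgb2 and Spi1 the D546R point is the highest.

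The WT library, which is on neither side of the ratio, helps to place the calls. Over the 167 lower genes the median normalised count was 250.7 in D546R, 577.2 in D544R and 532.6 in WT, and D546R was the lowest library in 166 of them. WT was above D544R in 80 and lay between the mutants in 86. Over the 68 higher genes the medians were 591.7 in D546R, 264.5 in D544R and 350.9 in WT. D546R was the highest library in all 68 of these, and D544R the lowest in 54. Since these genes were picked for a gap between the mutants, the position of the mutants is a description of the pick, and only the WT values did not enter the ratio.

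Across all 4925 genes the median log2 ratio was -0.07, with quartiles of -0.37 and 0.22 and extremes of -3.28 and 1.65, and 57.0% of genes were below 0. The 2 tails differed with depth. Among the 2497 genes with a mean of 300 to 600 there were 110 lower and 64 higher genes. The 1181 genes from 600 to 1000 held 18 lower and 4 higher genes, the 888 from 1000 to 2000 held 16 and 0, and the 359 from 2000 upward held 23 and 0. In all, 39 of the 1247 genes with a mean of at least 1000 (3.13%) were lower and none (0%) was higher. The best counted genes thus had calls in 1 direction, while the higher calls came from genes near the limit. Scaling by total counts in place of size factors moved the split to 127 lower and 93 higher genes at the limit of 300.

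The ratio was set against density in WT. Among the genes compared density was higher in shorter regions, and a shorter region needs a higher density to pass the limit. The median region was 131.9 kb in the least dense bin and 35.0 kb in the densest. In 10 bins from the least to the densest, the median log2 ratio was 0.08, 0.01, -0.04, -0.04, -0.08, -0.13, -0.15, -0.07, -0.11 and -0.29. It was therefore lowest in the densest bin without falling at every step. The 493 densest genes (17.4 to 187 normalised counts per kb in WT) held 60 lower genes (12.2%) and 3 higher ones, Malat1, Spi1 and Rhog. The other 4432 genes held 107 lower (2.41%) and 65 higher ones. The medians were -0.29 in the densest bin and -0.05 in the others, a difference of -0.24.

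Among the genes with a mean of at least 1000 the calls were nearly all in the densest bin. Of the 212 such genes in the densest bin 37 (17.5%) were lower, against 2 of 1035 (0.193%) elsewhere. The 2 were Eya1 and Chd9. Their WT densities were 10.2 and 16.9 normalised counts per kb, against a lower edge of the densest bin of 17.4.

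**Figure D2:**
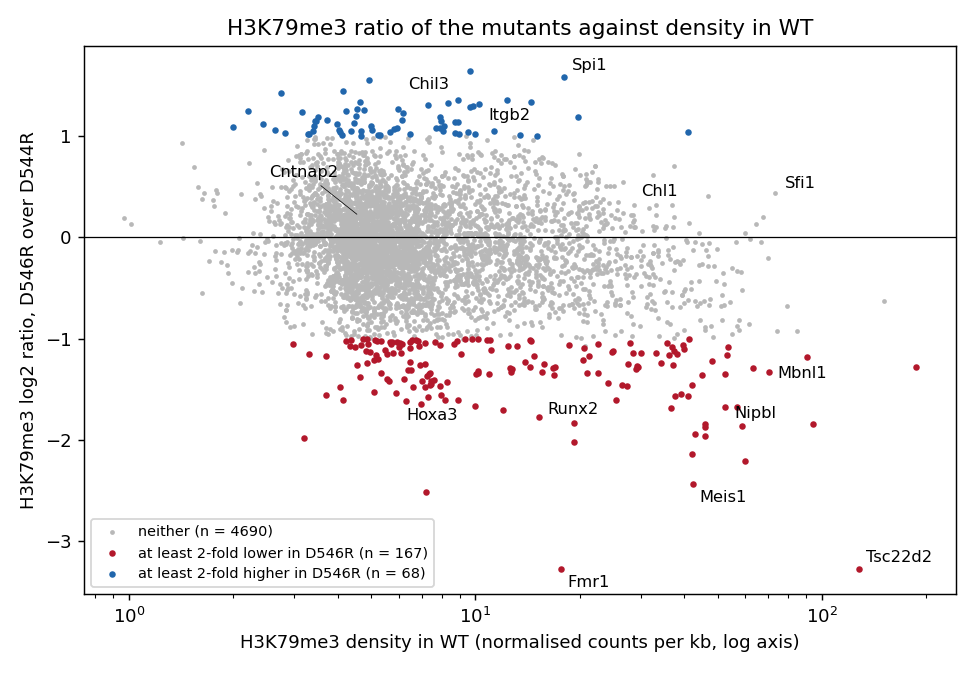
H3K79me3 log2 ratio, D546R over D544R, against density in the WT library (normalised counts per kb, log axis), each point being 1 of 4925 genes. Of the 167 lower genes 60 lie in the densest 10%, with Tsc22d2 at -3.28 and a density of 128, while the 68 higher genes reach 1.65.

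**Figure D3:**
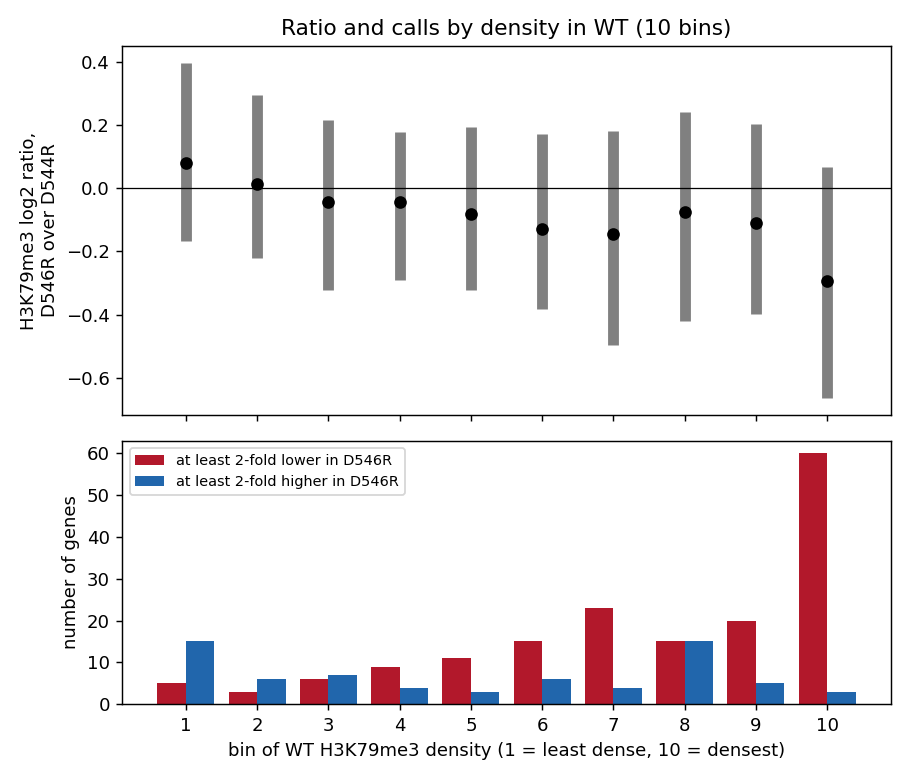
Upper panel, median (points) and quartiles (bars) of the H3K79me3 log2 ratio, D546R over D544R, in 10 bins of WT density. Lower panel, number of genes at least 2-fold lower or higher in D546R per bin, with 60 lower and 3 higher genes in the densest bin.

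Of the 10 densest genes 5 were lower and none was higher. The lower ones were 1810026B05Rik (-1.28), Tsc22d2, A630072M18Rik (-1.84), Mplkip (-1.19) and Mbnl1. Genes of nearly the same density could still differ in ratio. Mbnl1, a muscleblind splicing regulator with 70.2 normalised counts per kb in WT, had 3331 normalised counts in D546R, 8388 in D544R and 9165 in WT, and a log2 ratio of -1.33 (-1.56 to -1.11). Msl2, a ubiquitin ligase of the MSL complex with nearly the same density (69.7), had 1249 in D546R, 1435 in D544R and 2137 in WT, and a log2 ratio of -0.20 (-0.61 to 0.20). The mutants were thus close to each other at Msl2 and apart at Mbnl1. Sfi1, a centrosome protein with a density of 73.4, had 6036 in D546R, 4462 in D544R and 4668 in WT, a log2 ratio of 0.44 (0.24 to 0.63).

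The share of each library that fell in the densest genes was also read. The densest 493 genes held 7.40% of all counts in D546R (exact binomial interval 7.38 to 7.42), 9.46% in D544R (9.43 to 9.48) and 11.6% in WT (11.6 to 11.6). Unlike the fragment intervals, these intervals treat every read as independent, so they are too narrow even for counting error. These genes were picked by their density in WT, so the high WT share follows from the choice, and only the mutants can be set against each other. The 40 long silent neural genes held 3.54% in D546R, 3.50% in D544R and 3.22% in WT. A share of its own library does not depend on the size factors. In H3K79me2 the same 493 genes held 13.9% in D546R, 15.3% in D544R and 15.02% in WT. Across the lowest bin the median H3K79me3 density was 4.48 in D546R and 4.15 in D544R, and across the densest bin 17.9 in D546R and 21.0 in D544R. Signal and background within a region cannot be told apart from counts over genes, and the fragment numbers given above differ between the same libraries.

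Known targets of MLL fusions outside HoxA are genes that keep progenitors dividing and undifferentiated. Of 25 listed, 19 were above the limit, 8 were lower and none was higher, where 3.39% of all genes were lower and 1.38% higher. The median log2 ratio was -0.66, against -0.07 over all genes. This list, like the others, was chosen with earlier results of these data known, so these values are not an independent result. The median WT density of the 19 was 14.01 normalised counts per kb, against 5.72 over all genes compared. The part that density plays in the number of lower targets was not tested. The lower ones were Meis1, Runx2, Cdk6, Skap2, Jmjd1c, Eya1, Mbnl1 and Zeb2. Runx2, a runt-domain transcription factor, had 1379 normalised counts in D546R, 4192 in D544R and 5413 in WT, a log2 ratio of -1.60 (-1.95 to -1.27). Cdk6, the G1 kinase, had 1568 in D546R, 4301 in D544R and 4754 in WT (-1.46, from -1.78 to -1.14). In both, D544R was much nearer to WT than to D546R.

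Jmjd1c, a demethylase-family protein, had 1617 normalised counts in D546R, 4136 in D544R and 5898 in WT, a log2 ratio of -1.35 (-1.68 to -1.04). Eya1, a phosphatase and coactivator of homeobox factors, had 725 in D546R, 1838 in D544R and 1460 in WT (-1.34, from -1.84 to -0.87). Zeb2, a zinc finger repressor, had 1048 in D546R, 2528 in D544R and 3759 in WT (-1.27, from -1.68 to -0.88). Eya1 was the one of these in which D544R exceeded WT. Targets that were not called included Mef2c (-0.71), Pbx3 (-0.66), Runx1 (0.29) and Myb (0.63), all transcription factors of blood progenitors. Pbx3 had 1190 normalised counts in D546R, 1884 in D544R and 939 in WT.

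The HoxA cluster is short, and only Hoxa3 of its 11 listed genes passed the limit. Hoxa3 had 166 normalised counts in D546R, 528 in D544R and 457 in WT, and a log2 ratio of -1.67 (-2.78 to -0.70). Its region reached across neighbouring genes of the cluster (chr6 52117060 to 52163066), and their reads are shared with it.

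Chromatin regulators formed the other list with several lower genes. Of 34 listed, 28 were above the limit, 4 were lower and none was higher, beside 3.39% lower and 1.38% higher over all genes. The median was -0.47, with 22 of 28 below 0, against -0.07 and 57.0% over all genes. The median WT density of the 28 was 11.5 normalised counts per kb, against 5.72 over all genes compared. Bcor, a corepressor that joins a variant Polycomb complex, had 417 normalised counts in D546R, 1155 in D544R and 994 in WT (-1.47, from -2.14 to -0.85). Chd9, a chromodomain helicase, had 1166 in D546R, 2828 in D544R and 3852 in WT (-1.28, from -1.67 to -0.91). Bahcc1, a BAH-domain protein, had 346 in D546R, 820 in D544R and 440 in WT (-1.25), so D546R was close to WT and D544R above both. Arid2, a PBAF subunit, was at -1.24 and its relative Arid1b, a BAF subunit, just short of 2-fold at -0.99. Nipbl, the cohesin loader, is on no list, and its values are given for its 3.20-fold difference, with 1916 normalised counts in D546R, 6139 in D544R and 8217 in WT.

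A list of few genes can easily hold no call at the shares of 3.39% and 1.38% seen over all genes, and nothing is read from its absence in the next lists. The genes that encode DOT1L, AF9 and their elongation partners held none. Of 23 listed, 11 were above the limit, with a median of 0.08. They ran from Mllt10 (-0.64), a DOT1L cofactor, to Ell (0.93), an elongation factor. Dot1l and Mllt3, which encodes AF9, lay below the limit and had log2 ratios of -0.53 and -0.61. They had 184 and 175 counts in D546R and 199 and 199 in D544R before scaling.

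Several lists of blood cell and cell-state genes held no call either. These were stem and progenitor genes (12 of 22 above the limit, median 0.09), cytokine and growth factor receptors (8 of 22, -0.20), erythroid and megakaryocyte genes (6 of 20, 0.21), and lymphoid genes (8 of 23, -0.15). Cell cycle genes (6 of 31, -0.33), MYC and ribosome assembly genes (4 of 24, 0.09), cell cycle inhibitor and p53 genes (3 of 18, 0.41), Bcl2 family genes (2 of 15, -0.06) and interferon genes (2 of 26, -0.00) held none. Of the mast cell list only Mitf was above the limit (-0.74), and of 24 ribosomal protein genes none was. The extremes in these lists were Rb1 (-0.83), the retinoblastoma brake on the cell cycle, and Tfrc (0.62), the transferrin receptor.

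The long silent neural genes give a view of regions with little of the mark. None of the 40 was called, and their log2 ratios ran from -0.35 (Nrxn3) to 0.28 (Sox5), with a median of -0.08. Cntnap2, an adhesion protein of neurons, had 12833 normalised counts in D546R, 11119 in D544R and 10394 in WT, a log2 ratio of 0.21 (0.08 to 0.34). Ptprd, a receptor phosphatase, had 10053 in D546R, 12776 in D544R and 10377 in WT (-0.35, from -0.48 to -0.21). These deeply counted genes therefore differed in opposite directions, with intervals that both left out 0.

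**Figure D4:**
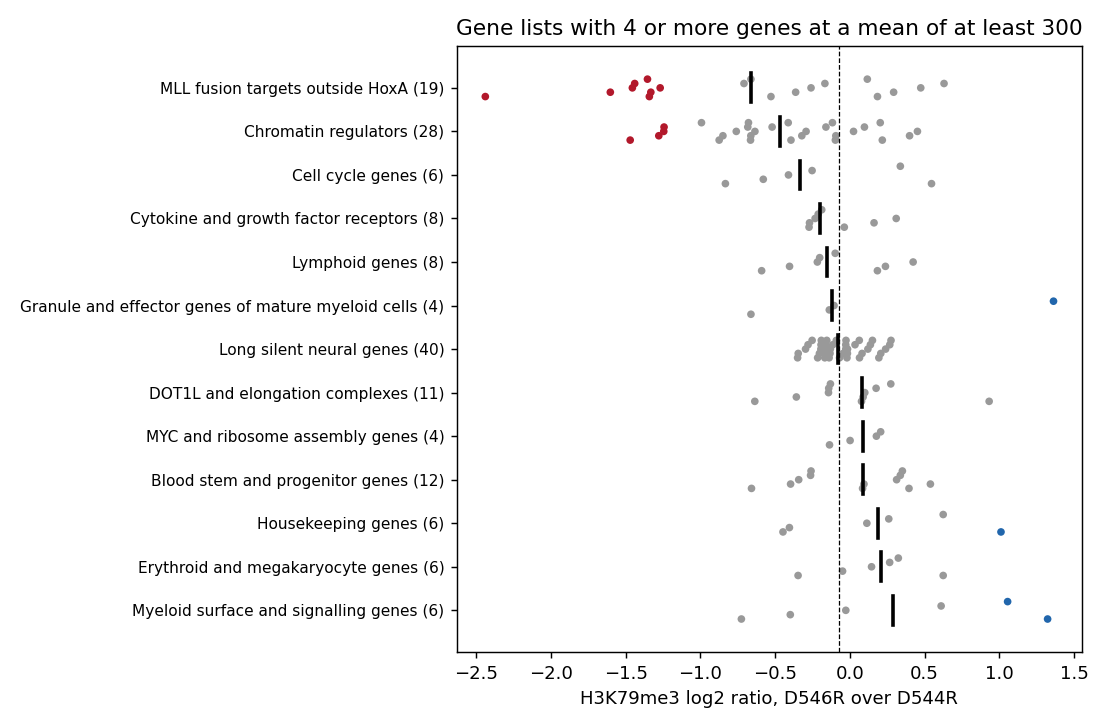
H3K79me3 log2 ratios, D546R over D544R, of gene lists with 4 or more genes above the limit, each point being 1 gene, with the list's median as a bar and the median of all genes (-0.07) as a dashed line. Lower genes, in red, lie in the fusion target (median -0.66) and chromatin regulator (-0.47) lists, and higher genes, in blue, in the myeloid and housekeeping lists.

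The higher genes reached smaller ratios than the lower ones. Papd7 (now Tent4a), which encodes a poly(A) polymerase, had 418 normalised counts in D546R, 133 in D544R and 365 in WT, with the highest log2 ratio of all (1.65, from 0.67 to 2.69). Spi1, which encodes the myeloid master regulator PU.1, had 626 in D546R, 209 in D544R and 378 in WT (1.58, from 0.80 to 2.40). At Papd7 D546R and WT were close, and D544R was the library that stood apart. Spi1 was the only one of 27 myeloid transcription factors above the limit.

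Chil3, Itgb2 and Itgam, also higher, belonged to lists of mature myeloid cells. The first, a secreted chitinase-like protein of macrophages and neutrophils, had 706 normalised counts in D546R, 274 in D544R and 197 in WT, a log2 ratio of 1.36 (0.66 to 2.09). Itgb2, the beta chain of the leukocyte integrins, had 721 in D546R, 288 in D544R and 383 in WT (1.32, from 0.63 to 2.03), and its partner Itgam, the alpha chain of Mac-1, 590 in D546R, 283 in D544R and 466 in WT (1.06, from 0.33 to 1.80). The myeloid surface list had 6 of 31 genes above the limit, 3 of them below 0 (Mrc1 lowest, at -0.73), and a median of 0.29. The granule list had 4 of 26, 3 of them below 0 (Alox5 lowest, at -0.66), and a median of -0.12. Among the genes above the limit, the higher genes were therefore not matched by the rest of their lists. This depended on the filter. With a limit of 100 the median was 0.40 for 17 myeloid surface genes, 7 of them below 0. For 9 granule genes it was 0.64, with 4 of them below 0. Polr2a, the largest subunit of RNA polymerase II, was the 1 higher gene among 6 housekeeping genes (1.01), with 371 normalised counts in D546R, 184 in D544R and 357 in WT.

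The rest of the 12 highest were Camk2b, Rad18, Spats2, Vps26a, Pawr, Zfp120, Stx12 and Dync1i2, with log2 ratios from 1.55 to 1.31. They include a calmodulin-dependent kinase (Camk2b), a ubiquitin ligase of DNA damage tolerance (Rad18), a retromer subunit (Vps26a), a syntaxin (Stx12) and a dynein chain (Dync1i2). In each of them D546R was the highest library.

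The same contrast in H3K79me2 came from separate libraries and another antibody. Over the 4925 genes, 39 (0.792%) were lower and 12 (0.244%) higher by the same rule, and the median was 0.07. For 3530 genes with a mean of at least 300 in both marks, the 106 lower in H3K79me3 had a median H3K79me2 log2 ratio of -0.28. Of them 68 (64.2%) were below 0 in H3K79me2, 25 (23.6%) were called lower there and none higher. Among the 3386 genes called neither way in H3K79me3 the median was 0.13 and 32.5% were below 0, with 7 lower (0.207%) and 10 higher. The 38 genes higher in H3K79me3 had a median of 0.30 in H3K79me2 and no call.

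In H3K79me2 by itself, 34 of 3838 genes above the limit (0.886%) were lower and 11 (0.287%) higher. Of the 32 genes lower in H3K79me2 and above both limits, 25 (78.1%) were lower in H3K79me3, and the median H3K79me3 log2 ratio of the 32 was -1.46. With a mean of at least 1000 in both marks, all 38 genes lower in H3K79me3 were below 0 in H3K79me2 and 16 were called, with a median of -0.89, against 27.4% below 0 among 696 genes called neither way. Across genes, Pearson's r between the marks was 0.30 and Spearman's rho 0.18 over 3530 genes, and 0.65 and 0.37 over the 734 with a mean of at least 1000 in both. The points share region length and, where regions overlap, reads, and genes are not independent replicates. No gene was called in opposite directions in the 2 marks.

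Meis1 differed even more in H3K79me2, with 628 normalised counts in D546R, 6329 in D544R and 5475 in WT, a log2 ratio of -3.33 (-3.64 to -3.04) against -2.44 in H3K79me3. Tsc22d2 had 1198 in D546R, 5042 in D544R and 4615 in WT, and a log2 ratio of -2.07 (-2.30 to -1.86), less than its -3.28 in H3K79me3. Bahcc1 had an H3K79me2 log2 ratio of -2.88, Hoxa3 -2.47, Eya1 -1.97 and Chd9 -1.68, each further from 0 than in H3K79me3. Dcun1d1 (-1.66), Cdk13 (-1.38), Erbb2ip (-1.28), Rdx (-1.03) and Nipbl (-1.10) were nearer to 0 than in H3K79me3. The genes that shared a direction therefore did not share a size.

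Some genes stood apart in 1 mark. Fmr1 and 2610020H08Rik, among the lowest in H3K79me3, were not called in H3K79me2. Their H3K79me2 log2 ratios were -0.68 (-1.16 to -0.22) for Fmr1 and -0.04 (-0.64 to 0.54) for 2610020H08Rik, whose H3K79me2 mean lay below 300. Clta was 4.05-fold lower in H3K79me3 but had 569 normalised H3K79me2 counts in D546R, 471 in D544R and 463 in WT, a log2 ratio of 0.27 (-0.12 to 0.66). Chl1, a cell adhesion gene of the L1 family, had 6067 normalised H3K79me3 counts in D546R, 4846 in D544R and 6417 in WT (0.32, from 0.13 to 0.52), but 7157 in D546R, 1700 in D544R and 4398 in WT in H3K79me2 (2.07, from 1.92 to 2.23). Mef2c was called lower in H3K79me2 (-1.14) and not in H3K79me3 (-0.71). Of the higher genes, Chil3 was also called higher in H3K79me2 (1.05, from 0.55 to 1.56), where its mean lay below 300, while Spi1 was at 0.09 (-0.28 to 0.46).

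**Figure D5:**
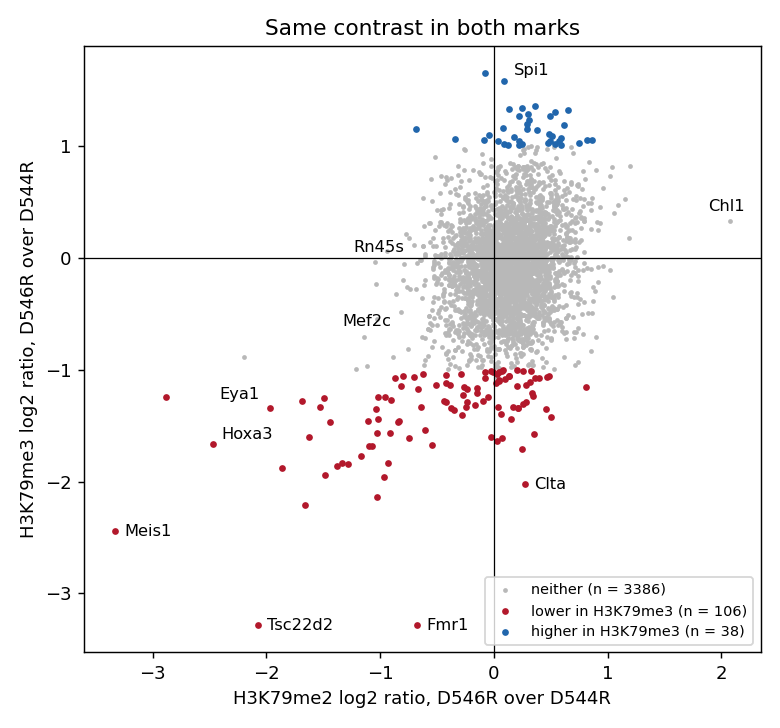
H3K79me3 against H3K79me2 log2 ratios, D546R over D544R, for 3530 genes with a mean of at least 300 in both marks, each point being 1 gene. Meis1 (-2.44 and -3.33) and Tsc22d2 (-3.28 and -2.07) are far below 0 in both, Clta only in H3K79me3, and Chl1 is far above 0 only in H3K79me2.

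Lower genes often lay next to each other. Each gene was set beside the next compared gene on either side, if that gene lay within 100 kb and did not overlap its region. Genes below the limit were skipped. At least 1 such neighbour was lower for 20 of 99 lower genes (20.2%) and for 104 of 2635 other genes (3.95%). A pair of adjacent lower genes enters this count from both of its genes. For the higher genes the counts were 2 of 37 (5.41%) and 45 of 2697 (1.67%). In all, 34 lower genes formed 15 runs in which each followed the last among the genes compared. For runs the distance was not limited, overlaps were allowed and genes below the limit were again skipped. The longest was Smim14, Ube2k, Pds5a and N4bp2 (chr5 65837993 to 66218023), in which Smim14 had a log2 ratio of -1.34 and N4bp2 one of -1.61. Other runs paired Atp11b (-1.57) with Dcun1d1 (-2.21), Baz2b (-1.46) with March7 (-1.67), and Skap2 (-1.44) with Hoxa3 (-1.67). A run of 3 held Gm6981 (-1.35), Rdx (-2.14) and Zc3h12c (-1.84), in which 1 pair overlapped. These runs were chosen after their values were seen, and 4 of their 19 pairs overlap and share reads.

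The median ratio differed less by length and by chromosome than by density, while the share of calls differed clearly by length. The median log2 ratio was -0.15 in regions under 25 kb, -0.10 from 25 to 50 kb, and -0.07 in each of the classes 50 to 100, 100 to 200 and 200 to 400 kb. The 302 regions of 400 kb or more had a median of -0.05 and no call. Calls of either direction were a larger share of the shorter regions, 8.99% being lower under 25 kb. Shorter regions also had fewer counts, the median of the mean normalised count being 389 under 25 kb and 2678 at 400 kb or more. Lower and higher calls numbered 16 and 5 of 178 regions under 25 kb, 37 and 21 of 658 from 25 to 50 kb, 84 and 32 of 1822 from 50 to 100 kb, 27 and 10 of 1357 from 100 to 200 kb, and 3 and 0 of 608 from 200 to 400 kb. The chromosome medians lay between -0.14 (X) and 0.05 (8).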

How the data were processed

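ChIP-seq of H3K79me2 and H3K79me3 was done on 6 libraries, 1 per genotype and mark. Sonicated cross-linked chromatin and TruSeq ChIP libraries were used, per the labels' protocols. The submitters' processing notes name Bowtie, bedtools, DESeq and mm9. The sources used here give no tool roles, no tool versions and nothing on removal of duplicate reads. The authors deposited raw, unnormalised read counts for each gene, from 2 kb upstream to the transcript end per the file headers. RefSeq strands were matched for 23677 identifiers. In 3898 of 4049 cases checked the 2 kb lay on the low-coordinate side, and the other 151 fitted neither position. For minus-strand genes the low-coordinate side is past the transcript end.

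The comparison, its members and the gene lists were chosen with earlier results of these data known. Size factors were medians of ratios over the 3 libraries of a mark. Ratios were taken on the log2 scale after adding 0.5 to each normalised count, and intervals were exact conditional binomial (Clopper-Pearson) 95% intervals on counts divided by reads per fragment, which were estimated from the share of 4591 autosomal regions under 5 kb with no count. This treats every such region as reachable, so the intervals are wide ones. With 1 library a group no test was made. A count of 0 allows up to 3 counts. Input and spike-in reads were not used here, and scaling hides any gain or loss of the mark that all genes share.

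There were 20 gene lists with 478 genes, of which 1 was not in the table and 166 were above the limit. Named genes were the 12 lowest and 12 highest called genes, the 6 lowest and 6 highest called at a mean of at least 1000, the 10 densest, fixed genes, the extremes of each list, and the 5 lowest and 5 highest called in both marks, leaving out predicted models and Mir, Snor or histone names. Genes named outside this rule were chosen after their values were seen. Alternatives were other scalings (among them edgeR 4.0.16 TMM factors), filters, fold thresholds, density shares and rankings, the counting interval and regions that overlap no other. Python 3.11.15, scipy 1.17.1 and R 4.3.3 were used.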

Additional observations from a re-analysis of the deposited data

How the results depend on the processing

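Lower and higher genes numbered 167 and 68 as reported, and 169 and 68 with intervals on undivided counts. They numbered 558 and 408 with a limit of 100, 39 and 0 with one of 1000, 778 and 826 with no filter, 468 and 258 at 1.5-fold, 27 and 1 at 3-fold, and 96 and 44 over regions that overlap no other. Under the other scalings lower genes numbered 127 to 180 and higher genes 57 to 93, the extremes being total counts (127 and 93) and size factors over all 6 libraries (180 and 57). A WT count of at least 300 as the only filter, chosen after seeing the data, gave 199 and 54. The median of the densest genes minus that of the others, -0.24 as reported, was -0.20 when the limit was 100, -0.50 when it was 1000 with bins drawn anew, -0.15 for the densest 20% and -0.41 for the densest 5%. It kept its sign under these and the other scalings. The D546R share of counts in the densest genes was 0.782 times the D544R share, and 0.858 times for the densest 20%, 0.689 times for the densest 5% and 0.796 times when genes were ranked by WT H3K79me2 density. The percentage of lower genes below 0 in H3K79me2 was 64.2, and 100 where the limit was 1000. Among genes called neither way it was 32.5 and 27.4. The cause of these shifts was not tested, apart from the filters and thresholds, which change how many genes can be called. Scalings moved all H3K79me3 log2 ratios by -0.02 to 0.07, and H3K79me2 ratios by -0.11 (long silent neural genes as the scale) to 0.05. All 440 values computed for 88 named genes under 5 alternatives stayed within their fragment intervals. These alternatives were the scalings and a larger count added before the ratio. Shifts as small as those of the scalings could hardly leave such intervals, so nothing is read from this. In 4 of the 440 values, for Rn45s and Bcl2, whose ratios lie near 0, the sign changed. For list medians the margin was the counting error on the summed counts of a list, not the spread between its genes. Of 104 list medians under alternatives 93 moved by less than this margin and 11 by more, and 10 changed sign. With a limit of 100 these were granule genes (0.64 in place of -0.12), DOT1L and elongation genes (-0.14 in place of 0.08), stem and progenitor genes (-0.09 in place of 0.09), receptors (0.02 in place of -0.20) and MYC genes (-0.05 in place of 0.09). With a limit of 1000 it was myeloid surface genes (-0.03 in place of 0.29). Under other scalings it was the Bcl2 family and, in 3 scalings, interferon genes, both with medians near 0. No paired analysis was possible because each group has 1 library. Depth limits genes near 300 counts above all, where both tails hold most calls, and gives no error between cultures.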

Other observations

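Below the limit of 300 the counts were too low to be part of the comparison, and the values are given without a call. Of the HoxA genes that drive MLL-AF9 leukemia, Hoxa9 had 143 counts in D546R, 282 in D544R and 227 in WT before scaling, Hoxa10 had 120 in D546R, 271 in D544R and 195 in WT, and Hoxa7 had 33 in D546R, 111 in D544R and 125 in WT. Their log2 ratios, D546R over D544R, were -1.40 (fragment interval -2.75 to -0.25), -1.59 (-3.08 to -0.36) and -2.15 (-5.64 to 0.05). The interval of Hoxa7, on the fewest counts, thus included no change. In H3K79me2 Hoxa9 and Hoxa10 stood at -3.07 and -3.17.

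Lists of mature myeloid cells had more genes above a mean of 100 than above 300. There the median log2 ratio was 0.40 for 17 myeloid surface and signalling genes, 0.64 for 9 granule and effector genes and 0.32 for 9 myeloid transcription factors. It was -0.22 for 8 ribosomal protein genes, which were all below 300. Plec, which encodes the cytolinker plectin, had 320 counts in D546R, 26 in D544R and 124 in WT before scaling, a log2 ratio of 3.18.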
